A study of Mus musculus with 22 samples.

Results

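The circadian clock genes studied here were Arntl, Clock, Npas2, Per1, Per2, Per3, Cry1, Nr1d1, Nr1d2 and Dbp, 10 of the 55573 genes in a table of liver mRNA-seq counts, taken by their symbols. All 10 were among the 14062 genes tested, whose counts averaged at least 10 across the libraries. The libraries came from 22 livers, 1 per mouse, of 3-month-old C57BL/6 mice kept on 12 h of light and 12 h of dark. Cre mice (Flcn WT/WT, Albumin-Cre+/-) were fed chow with 10 kcal% fat (n = 6) or a methionine- and choline-deficient (MCD) diet (n = 5), and liver-Flcn-/- mice (Flcn f/f, Albumin-Cre+/-) were fed chow (n = 5) or MCD (n = 6). Both genotypes therefore carried the recombinase, which the albumin promoter drives in hepatocytes, so other liver cells keep Flcn, which encodes folliculin. Diets began at 6 weeks of age, lasted 6 weeks and were eaten freely. A library of Cre mice held 15276157 to 19417246 counted reads on chow and 18201287 to 21144388 on MCD, and one of liver-Flcn-/- mice 13751347 to 19645473 on chow and 16616132 to 20706657 on MCD.

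The mammalian clock is a feedback loop of transcription that turns over about once a day. ARNTL (BMAL1) pairs with CLOCK or NPAS2 and binds E-box DNA to activate the Per, Cry, Nr1d and Dbp genes, PER and CRY proteins then repress the pair, and the REV-ERB receptors encoded by Nr1d1 and Nr1d2 repress Arntl, Clock, Npas2 and Cry1. In mouse liver Arntl, Clock and Npas2 mRNAs therefore peak at about the opposite time of day to Nr1d1, Nr1d2, Dbp and the Per genes, and Cry1 peaks late, near Arntl. The hour at which the livers were taken was not given in the sources used here, so its part in every difference below was not tested.

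Promoters of 4 of the genes are shown because they hold matches to short patterns searched for. RefSeq windows on GRCm38.p6 from 250 bases before to 50 bases after a start site were searched on both strands. The patterns were the E-box CACGTG, the D-box TTANGTAA bound by DBP and its rival NFIL3, and TNGGTCA. The last is a loose form of the site that ROR activators and REV-ERB repressors share, since any base was allowed at N. A match to it need not be that site. The E-box was in 7.15% of the 32851 windows, the D-box in 2.32% and TNGGTCA in 11.0%. For the clock genes the table held 13 windows of 9 genes, and Per2 had no entry. The E-box was in windows of Per1 and Cry1, the D-box in that of Per3 and TNGGTCA in those of Arntl and Per3. The bases before the start site are printed in lower case with the matches in capitals, and bases that GENCODE M21 annotates as exon were left out. The Per1 window lies inside the gene as GENCODE M21 draws it, downstream of its first annotated start.
Arntl, chr7:113207215-113207464, + strand: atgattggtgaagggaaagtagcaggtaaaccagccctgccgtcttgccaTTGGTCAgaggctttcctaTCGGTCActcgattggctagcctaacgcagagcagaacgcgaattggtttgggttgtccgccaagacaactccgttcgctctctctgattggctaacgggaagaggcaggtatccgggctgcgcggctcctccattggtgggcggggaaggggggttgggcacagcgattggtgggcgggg
Per1, chr11:69098699-69098947, + strand: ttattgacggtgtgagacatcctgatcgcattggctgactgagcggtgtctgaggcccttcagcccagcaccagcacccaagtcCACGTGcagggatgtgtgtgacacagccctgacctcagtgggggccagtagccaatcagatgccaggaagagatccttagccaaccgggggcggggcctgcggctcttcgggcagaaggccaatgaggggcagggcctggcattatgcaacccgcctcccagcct
Per3, chr4:151044666-151044915, - strand: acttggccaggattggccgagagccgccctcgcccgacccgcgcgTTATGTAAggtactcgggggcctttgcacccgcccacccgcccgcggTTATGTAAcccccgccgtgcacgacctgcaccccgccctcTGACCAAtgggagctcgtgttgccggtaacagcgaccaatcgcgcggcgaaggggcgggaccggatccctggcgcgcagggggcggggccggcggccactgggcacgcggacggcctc
Cry1, chr10:85185065-85185304, - strand: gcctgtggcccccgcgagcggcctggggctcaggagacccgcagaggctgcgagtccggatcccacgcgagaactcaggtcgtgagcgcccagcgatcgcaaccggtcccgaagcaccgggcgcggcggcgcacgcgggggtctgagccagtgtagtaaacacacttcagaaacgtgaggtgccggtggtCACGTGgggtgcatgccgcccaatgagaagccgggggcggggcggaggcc
In the Arntl window shown, 2 ROR cores start 200 and 181 bases before the start site. Another Arntl window, with a later start site, also holds the match taggtca 31 bases after that start, among bases not printed. The E-box starts 166 bases before it in Per1 and 60 bases before it in Cry1. The Per3 window holds 2 D-boxes, 205 and 158 bases before its start, and a match to TNGGTCA on the other strand at 118 bases. No motif overlapped another. A match describes these letters only, and factor binding was not measured.

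In GENCODE M21 on GRCm38, Arntl spans chr7:113207465-113314126, Clock chr5:76209868-76304792, Npas2 chr1:39193731-39363236, Per1 chr11:69095217-69109960 and Per2 chr1:91415982-91459324. Per3 spans chr4:151003652-151044665, Cry1 chr10:85131700-85185064, Nr1d1 chr11:98767932-98775333, Nr1d2 chr14:18204054-18239127 and Dbp chr7:45705088-45710203. Exons of Nr1d1 share 263 bases (8.55% of its exon length) with Thra and those of Dbp share 539 bases (18.0%) with Sphk2, in both cases on the opposite strand. The strand setting of the counting was not given in the sources used here, so whether reads from these stretches were counted, and for which gene, is not known. Sphk2 had a median of 1049 counts per library.

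Flcn itself, counted over the whole gene, was at 31.7 ± 4.90 CPM (counts scaled to library size with TMM factors, SD, n = 6) in Cre mice and 20.4 ± 2.78 (n = 5) in liver-Flcn-/- mice on chow, with ranges of 26.1 to 40.1 and 16.7 to 24.2 that did not overlap. On MCD it was at 29.1 ± 8.40 (n = 5) and 26.0 ± 5.12 CPM (n = 6), with overlapping ranges of 18.2 to 39.8 and 17.6 to 32.6. A count over the whole gene includes exons outside the deleted stretch and RNA of other cells, so it checks the genotype labels only weakly. Markers of hepatocytes were present at the level of liver in every group, with Alb, which encodes albumin, at 101100 ± 21320 CPM in Cre mice on chow. In such bulk samples fewer cells of a type and less RNA per cell cannot be told apart.

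The labels give no sex, but Xist RNA, made in female cells, was at 255.9 to 429.7 CPM in 12 libraries and at 0 to 1.17 CPM in 10. The Y-linked Ddx3y was at 0 to 17.9 CPM in the first and at 45.4 to 104.9 CPM in the second. Each group held 3 libraries with Xist RNA. Cre mice on chow had 3 without it, as had liver-Flcn-/- mice on MCD, and the other groups 2. The 5 chow libraries without Xist RNA (Cre chow 1, 5 and 6, liver-Flcn-/- chow 1 and 3) are also the 5 with a low share of uniquely mapped reads, so on chow the effects of these properties cannot be told apart. Among them, Cre chow 6 stood apart in the clock genes. It had 1.13 CPM of Arntl, where the other 5 livers of its group had 14.6 to 36.5, only 3 counts of Npas2, and 195.2 CPM of Dbp, where the others had 1.46 to 49.1. Cre MCD 3 stood apart in the same direction, with 2.72 CPM of Arntl and 130.7 CPM of Dbp.

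Per unit of exon length, the transcripts of Nr1d1, Dbp and Nr1d2 had the highest means in Cre mice on chow. Nr1d1 was at 30.9 ± 19.5 CPM per kb (SD, n = 6), followed by Dbp at 15.0 ± 25.3 and Nr1d2 at 11.3 ± 6.39. Without Cre chow 6 (n = 5) Dbp was at 4.95 ± 6.54 CPM per kb, below Nr1d2 at 8.99 ± 3.09, and Per3 at 0.452 ± 0.243. Cry1 was at 4.16 ± 1.49, Clock at 3.42 ± 0.371 and Arntl at 3.01 ± 1.71 CPM per kb. Per1 (2.25 ± 0.849), Npas2 (1.72 ± 1.18), Per2 (1.72 ± 0.801) and Per3 (0.849 ± 0.997) were the lowest. The ranges of mean ± SD of all neighbours in this order overlapped, so the order is one of means only.

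**Figure D1:**
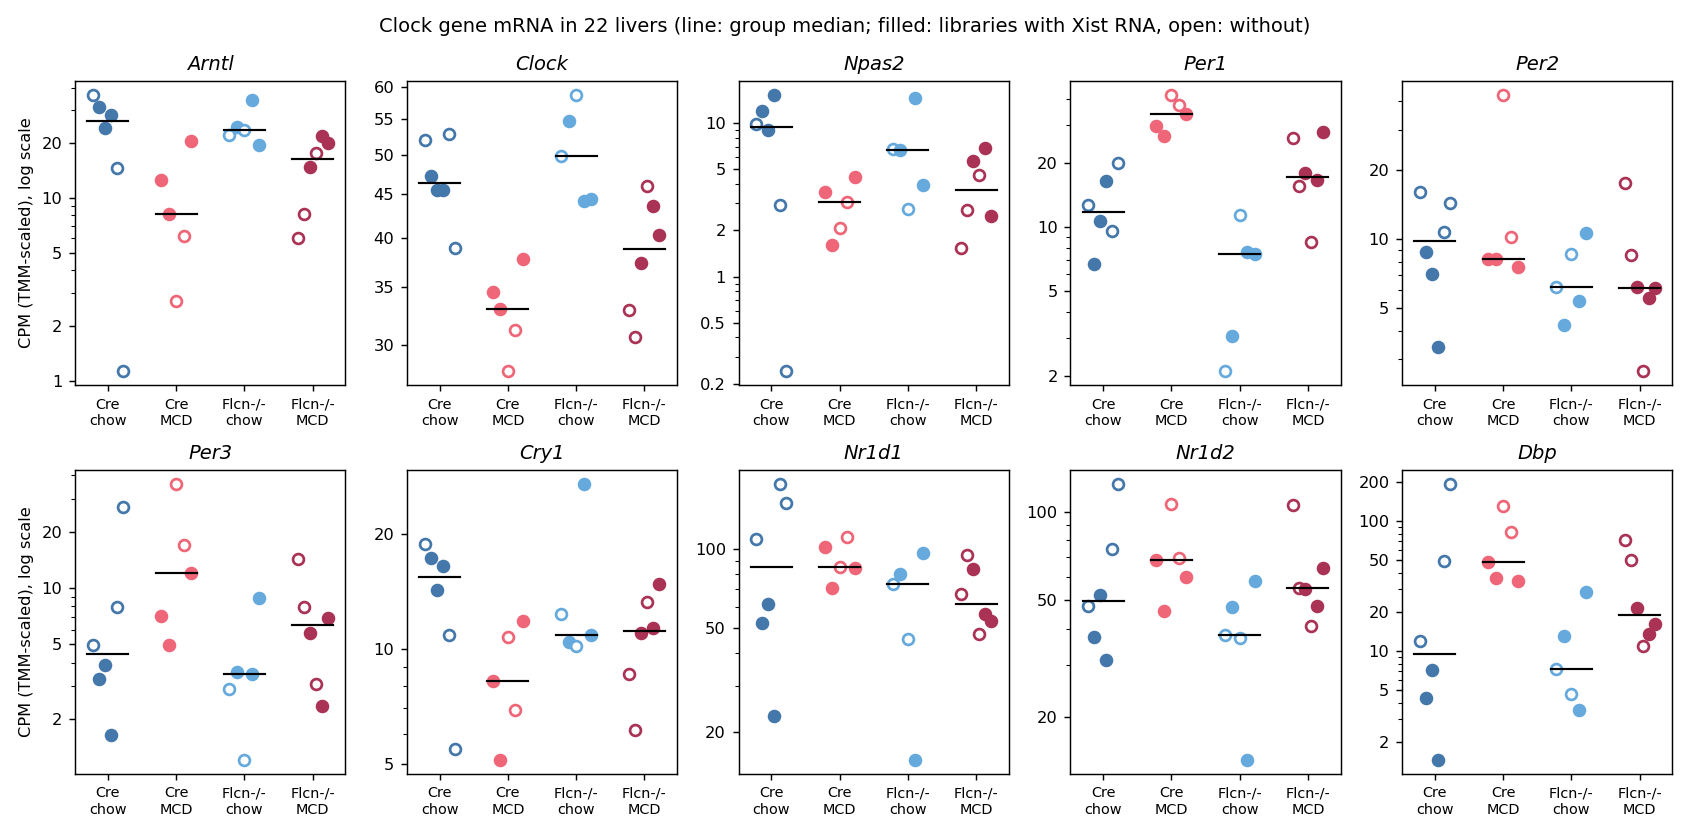
Points show CPM (TMM-scaled, log axis) of each clock gene in each of the 22 livers by group, with the group median as a line and libraries without Xist RNA as open points. Per1 of Cre mice on MCD (26.7 to 41.7 CPM) lies above all Cre mice on chow (6.68 to 19.9 CPM), and Dbp of Cre mice on chow runs from 1.46 to 195.2 CPM.

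The first comparison asked how the clock genes responded to the MCD diet in Cre mice. Per1 rose, and Clock and Npas2 fell, in edgeR's quasi-likelihood test (adjusted p under 0.05, Benjamini-Hochberg, all genes tested). These were 3 of the 10 genes, where 57.5% of all genes tested passed (29.3% higher and 28.2% lower), so their count lay below the background share. The median log2 fold change of the 10 genes was 0.06, and that of all genes tested was 0.01. It was 0.31 without Cre chow 6 and -0.14 without Cre MCD 3, 2 livers that stood apart, so its sign rested on single livers.

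Per1, an immediate-early member of the Per repressors, was at 29.9, 26.7, 41.7, 37.4 and 33.7 CPM in the 5 Cre mice on MCD. On chow the lowest, median and highest of the 6 livers were 6.68, 11.7 and 19.9 CPM. Every MCD liver was above every chow liver. Per1 thus rose by 1.42 on the log2 scale (SE 0.34, adjusted p = 0.00107, edgeR), and the two-sided exact permutation test on log2 CPM gave p = 0.00433, where the smallest p these group sizes allow is 0.00216.

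Clock, which encodes the partner of ARNTL, was at 34.6, 33.1, 27.9, 31.2 and 37.8 CPM on MCD. On chow its lowest, median and highest values were 38.9, 46.4 and 52.8 CPM. The groups did not overlap, although the change was small, with a log2 fold change of -0.51 (SE 0.11, adjusted p = 0.000539, edgeR, exact permutation p = 0.00433). Clock also varied least of the 10 genes between livers of a group, as described below.

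Npas2, which encodes the alternative partner of ARNTL, was at 3.58, 1.59, 2.06, 3.06 and 4.46 CPM on MCD and at 0.241, 9.49 and 15.3 CPM (lowest, median and highest) on chow. The MCD livers were below 4 of the 6 chow livers, but Cre chow 6 was below all of them. Npas2 changed by -1.49 on the log2 scale (SE 0.58, adjusted p = 0.0333, edgeR), whereas the exact permutation test on log2 CPM gave p = 0.422. The Npas2 call was lost when Cre chow 1, 2 or 4 or Cre MCD 2, 3 or 4 was left out, leaving Clock and Per1, beside Cry1 in the case of Cre MCD 3.

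Arntl, the activator without which the loop stops, was at 12.4, 8.19, 2.72, 6.16 and 20.4 CPM on MCD and at 1.13, 26.3 and 36.5 CPM (lowest, median and highest) on chow. Its log2 fold change was -1.19 (SE 0.52, adjusted p = 0.0574, edgeR). Cry1, a repressor whose timing is near that of Arntl, was at 8.24, 5.13, 10.7, 6.94 and 11.8 CPM on MCD and at 5.46, 15.4 and 18.8 CPM on chow (-0.70, SE 0.31, adjusted p = 0.0583, edgeR). Neither passed the threshold in this fit, but with all 22 libraries Cry1 passed with DESeq2 (-0.68, adjusted p = 0.0429) and both passed with sex read from Xist as a covariate (Arntl -1.35, adjusted p = 0.0195 and Cry1 -0.70, adjusted p = 0.0469, edgeR). In both genes the MCD values overlapped those on chow through Cre chow 5 and Cre chow 6. Over 33 alternatives Arntl passed in 5 and Cry1 in 8. The exact permutation test on log2 CPM gave p = 0.355 for Arntl and p = 0.104 for Cry1.

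Dbp, a PAR bZIP factor through which the clock drives liver genes, was at 49.0, 36.7, 130.7, 82.8 and 34.8 CPM on MCD and at 1.46, 9.55 and 195.2 CPM on chow. Of the chow livers 4 were under 12 CPM and the remaining 2, Cre chow 5 and 6, lay within or above the MCD range. Its log2 fold change of 0.58 (SE 0.85) had an adjusted p of 0.58 (edgeR), whereas limma-voom on the same 22 libraries gave 2.26 (SE 0.81, adjusted p = 0.0211). Per3, a Per member with a lesser part in the loop, was at 7.08, 5.00, 36.2, 17.0 and 12.0 CPM on MCD and at 1.64, 4.44 and 27.2 CPM on chow (0.94, SE 0.62, adjusted p = 0.206, edgeR).

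The other genes of the repressing limb overlapped widely between diets. Per2 was at 8.24, 8.23, 42.6, 10.2 and 7.58 CPM on MCD and at 3.41, 9.78 and 16.1 CPM on chow (0.62, SE 0.48, adjusted p = 0.28, edgeR). Nr1d1 was at 101.0, 70.6, 84.8, 110.5 and 84.5 CPM on MCD and at 22.9, 85.1 and 176.8 CPM on chow, with a log2 fold change of -0.07 (SE 0.41). Nr1d2 was at 68.6, 45.8, 106.8, 69.7 and 59.9 CPM on MCD and at 31.2, 49.8 and 125.0 CPM on chow (0.20, SE 0.34).

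The number of clock genes that passed rested on Cre chow 6. Without that library 7 of the 10 passed, namely Per1 (1.59), Per3 (1.84) and Dbp (2.18) upward and Arntl (-1.43), Clock (-0.56), Npas2 (-1.74) and Cry1 (-0.86) downward (log2 fold changes, highest adjusted p 0.0182, edgeR). In that fit 56.6% of all genes tested passed. Among the 12 libraries with Xist RNA the same 7 genes passed, with Dbp at 3.21 (SE 0.60), beside 52.4% of all genes. Among the 10 without it only Clock passed (-0.68, adjusted p = 0.0273, edgeR), with 3 chow and 2 MCD livers of Cre mice, beside 33.3% of all genes. Leaving out Cre MCD 5 gave 5 genes, adding Arntl and Cry1, beside 54.8%. Without Cre MCD 3, Per2 turned from 0.62 to -0.22 (adjusted p = 0.654, edgeR), Per3 moved from 0.94 to 0.35, Dbp from 0.58 to 0.19 and Nr1d2 from 0.20 to -0.01.

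**Figure D2:**
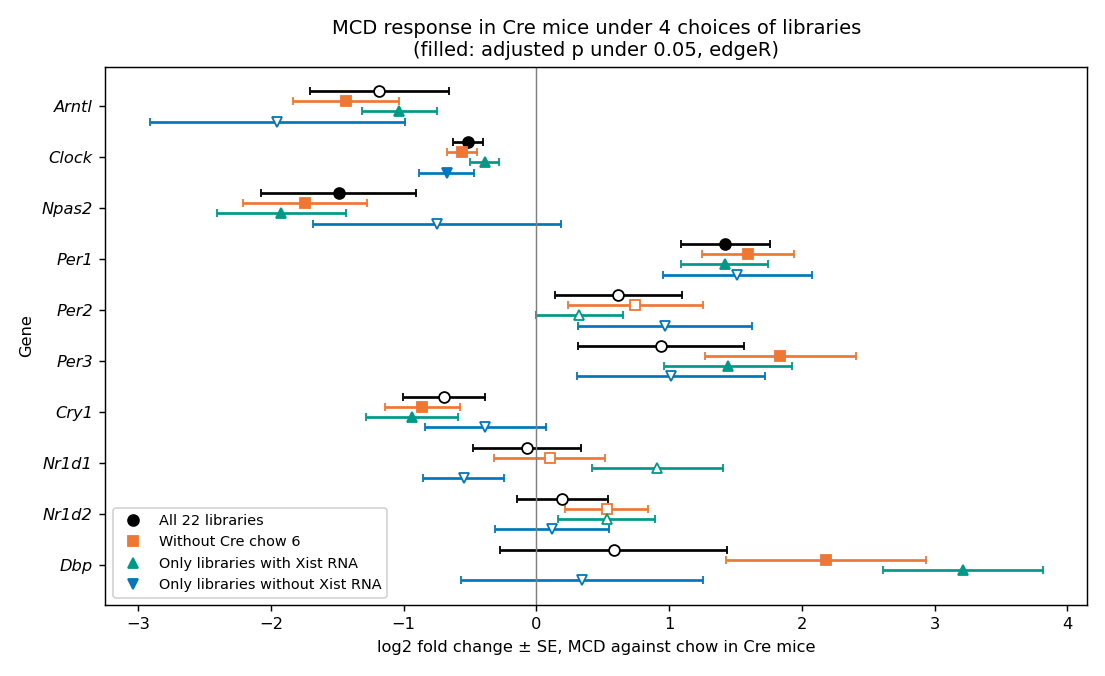
Log2 fold changes (± SE) of each clock gene for MCD against chow in Cre mice, fitted with all 22 libraries, without Cre chow 6, and within the libraries with or without Xist RNA. Filled symbols passed an adjusted p of 0.05, which 3, 7, 7 and 1 genes did, and in edgeR Dbp moves from 0.58 with all libraries to 2.18 without Cre chow 6 (limma-voom gave 2.26 with all libraries).

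The second comparison asked the same in liver-Flcn-/- mice. Per1 rose and Clock fell again, and they were the 2 of 10 genes that passed, beside 45% of all genes tested (22.5% higher and 22.5% lower). The median log2 fold change was 0.13 over the 10 genes and 0.00 over all genes tested, and that of the 10 genes was -0.14 with and 0.28 without Xist RNA. It was -0.08 without liver-Flcn-/- MCD 1 and 0.33 without liver-Flcn-/- chow 5, so its sign rested on a single liver. The livers of this comparison are not those of the first, but both comparisons came from 1 fit with a shared estimate of the spread.

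Per1 was at 2.10, 3.09, 11.4, 7.61 and 7.44 CPM in the 5 liver-Flcn-/- mice on chow, and at 8.45, 17.2 and 28.0 CPM (lowest, median and highest of 6) on MCD. All MCD livers but 1 were above all chow livers. Per1 rose by 1.56 on the log2 scale (SE 0.36, adjusted p = 0.00114, edgeR, exact permutation p = 0.00649).

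Clock was at 49.8, 54.8, 58.8, 44.1 and 44.4 CPM on chow and at 30.6, 38.8 and 45.9 CPM on MCD, where 1 of the 6 MCD livers lay within the chow range. Its log2 fold change was -0.39 (SE 0.11, adjusted p = 0.00662, edgeR, exact permutation p = 0.0173). The call of Clock was lost among the libraries with Xist RNA, where it was at -0.24 (SE 0.11, adjusted p = 0.0871, edgeR), and among those without it, where it was at -0.59 (SE 0.20, adjusted p = 0.0578). Per1 was at 1.27 (SE 0.62, adjusted p = 0.176, edgeR) among those without Xist RNA, where no clock gene passed, with 2 chow and 3 MCD livers. Clock also missed the threshold without the 5 chow libraries that had a low uniquely mapped share (adjusted p = 0.0504, edgeR), where Npas2 passed (-1.08, adjusted p = 0.0494). In a fit of only the 2 groups compared Arntl passed beside Clock and Per1 (-0.75, adjusted p = 0.0472, edgeR).

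Arntl was at 22.0, 24.5, 23.5, 34.1 and 19.4 CPM on chow and at 6.06, 16.2 and 21.7 CPM on MCD. Its log2 fold change of -0.75 (SE 0.51) did not pass in edgeR (adjusted p = 0.24), and the exact permutation test of this gene alone gave p = 0.0303. Npas2 was at 6.77, 6.65, 2.75, 14.7 and 3.93 CPM on chow and at 1.53, 3.66 and 6.89 CPM on MCD (-0.81, SE 0.56). Cry1 was at 12.4, 10.5, 10.2, 27.1 and 10.9 CPM on chow and at 6.16, 11.2 and 14.8 CPM on MCD (-0.39, SE 0.30). Values on the 2 diets overlapped in each of these genes. Without liver-Flcn-/- chow 4, Npas2 was at -0.34 (SE 0.58) and Cry1 at -0.01 (SE 0.28).

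Dbp was at 7.32, 13.2, 4.70, 3.53 and 28.7 CPM on chow and at 11.0, 18.9 and 72.4 CPM on MCD, a log2 fold change of 1.41 (SE 0.90, adjusted p = 0.212, edgeR). Nr1d2 was at 38.0, 47.5, 37.2, 14.3 and 58.4 CPM on chow and at 40.7, 54.9 and 105.4 CPM on MCD (0.65, SE 0.35, adjusted p = 0.133). Nr1d1 was at 73.1, 79.9, 45.4, 15.7 and 95.9 CPM on chow and at 47.3, 61.7 and 94.6 CPM on MCD (0.11, SE 0.41). None of these 3 genes separated the diets.

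Per2 was at 6.23, 4.22, 8.66, 5.40 and 10.6 CPM on chow and at 2.66, 6.16 and 17.5 CPM on MCD, with a log2 fold change of 0.14 (SE 0.49). Per3 was at 2.88, 3.57, 1.21, 3.47 and 8.89 CPM on chow and at 2.35, 6.32 and 14.4 CPM on MCD (0.73, SE 0.66). Both overlapped between diets, so of the Per genes Per1 alone passed in liver-Flcn-/- mice. Without liver-Flcn-/- MCD 1, Per2 was at -0.27 (SE 0.48) and Nr1d2 at 0.43 (SE 0.34), and without liver-Flcn-/- chow 5 Per3 was at 1.26 (SE 0.71).

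**Figure D3:**
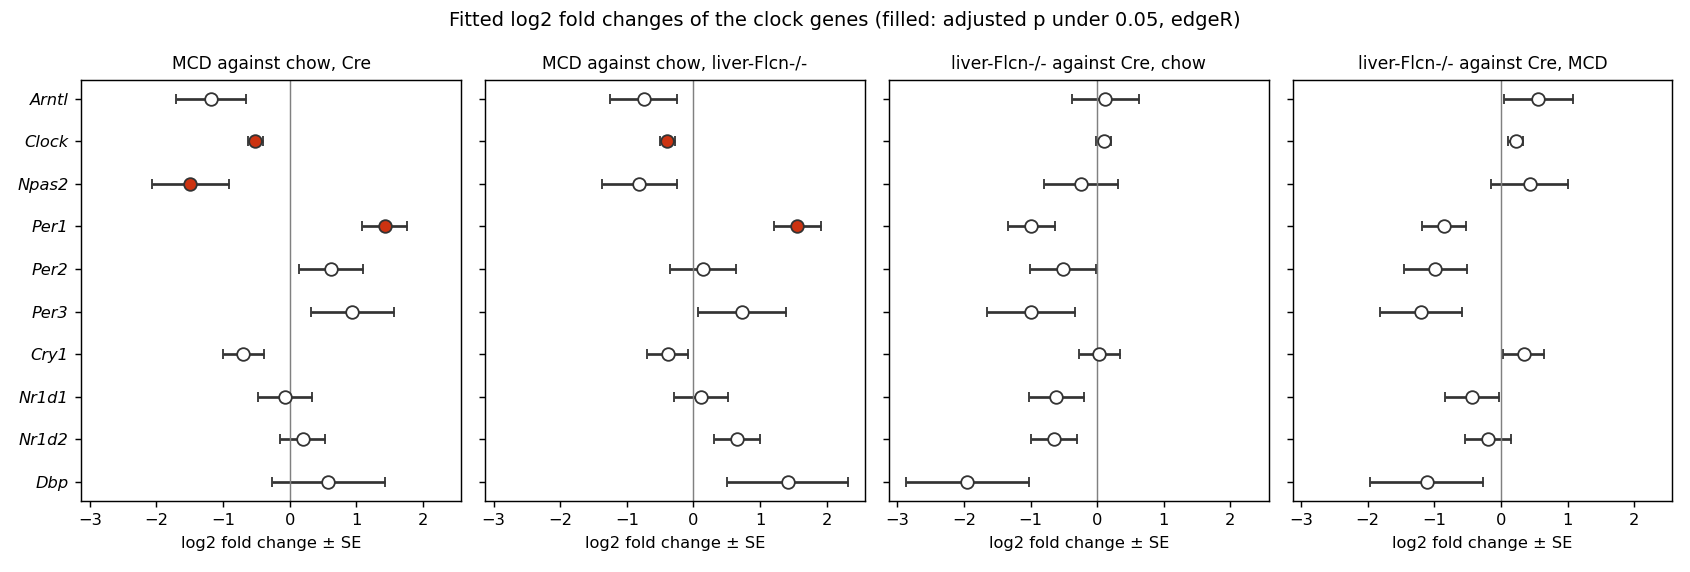
Fitted log2 fold changes (± SE, all 22 libraries in 1 edgeR fit) of the clock genes in 4 comparisons, with filled points for an adjusted p under 0.05. Per1 (1.42 and 1.56) and Clock (-0.51 and -0.39) are filled for MCD in both genotypes, Npas2 (-1.49) in Cre mice, and no point is filled for genotype.

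The comparisons of genotype asked whether loss of Flcn changed the clock genes on each diet. On chow 0 of the 10 passed in edgeR, beside 8.62% of all genes tested, and 2 had an unadjusted p under 0.05. On MCD 0 passed, beside 16.6%, and 1 had an unadjusted p under 0.05. The median log2 fold change of the 10 genes was -0.56 on chow and -0.31 on MCD, where all genes tested had -0.03 and -0.01. The chow median was -0.33 without Cre chow 6. Among the libraries with Xist RNA it was 0.03, and among those without it -0.93. The MCD median was -0.07 without Cre MCD 3. These comparisons use the same libraries as the diet comparisons above.

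Per1 was the lowest in p on both diets. It was at 6.32 ± 3.76 CPM (SD, n = 5) in liver-Flcn-/- mice against 12.7 ± 4.78 (n = 6) in Cre mice on chow, a log2 fold change of -0.99 (SE 0.36, adjusted p = 0.0866, edgeR, exact permutation p = 0.0368). On MCD it was at 18.8 ± 7.24 (n = 6) against 33.9 ± 5.93 CPM (n = 5), a log2 fold change of -0.85 (SE 0.33, adjusted p = 0.0811, edgeR, exact permutation p = 0.013). The genotypes overlapped on both diets. Per1 passed on chow with DESeq2 and without liver-Flcn-/- chow 3, and on MCD with limma-voom, with the replicate block, without the 5 chow libraries and in a fit of only those 2 groups, so its call depended on the tool and the libraries.

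Dbp had the largest fold difference on chow, -1.95 (SE 0.92, adjusted p = 0.201, edgeR), with 11.5 ± 10.3 CPM (n = 5) in liver-Flcn-/- mice and 44.9 ± 75.7 (n = 6) in Cre mice, a mean that Cre chow 6 carries. Without that liver the difference was -0.35 (SE 0.75, adjusted p = 0.836, edgeR) and the Cre mean 14.8 ± 19.6 CPM (n = 5). Among the libraries with Xist RNA the difference turned to 1.81 (adjusted p = 0.111, edgeR). In the 10 libraries without Xist RNA it was -3.81 (SE 1.14, adjusted p = 0.141, edgeR). On MCD Dbp was at 30.8 ± 24.8 (n = 6) against 66.8 ± 40.6 CPM (n = 5), a log2 fold change of -1.12 (SE 0.86). On MCD the differences were -1.20 (SE 0.62) for Per3 and -0.98 (SE 0.48) for Per2, and neither passed. Without Cre MCD 3 they were -0.61 (SE 0.62) for Per3, -0.14 (SE 0.40, adjusted p = 0.852, edgeR) for Per2 and -0.72 (SE 0.90) for Dbp, and Arntl was at 0.32 (SE 0.51), whereas without liver-Flcn-/- MCD 1 Per2 passed (adjusted p = 0.0499). Arntl differed by 0.12 (SE 0.51) on chow and by 0.56 (SE 0.52) on MCD, and Clock by 0.10 (SE 0.11) and 0.22 (SE 0.11). Leaving out Cre MCD 5 moved the MCD difference of Arntl to 0.995 (SE 0.54, adjusted p = 0.226, edgeR). The values on chow were -0.99 (SE 0.66) for Per3, -0.65 (SE 0.35) for Nr1d2, -0.62 (SE 0.41) for Nr1d1 and -0.51 (SE 0.50) for Per2. Without Cre chow 6 Per3 was at -0.09 (SE 0.58), Nr1d2 at -0.31 (SE 0.31), Nr1d1 at -0.44 (SE 0.42) and Arntl at -0.12 (SE 0.39). The values on MCD were -0.43 (SE 0.41) for Nr1d1 and -0.19 (SE 0.34) for Nr1d2. Npas2 (-0.25 and 0.43) and Cry1 (0.03 and 0.34) differed by less than 1 SE on chow.

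The interaction of genotype and diet tested whether the diet response itself differed between genotypes. No clock gene passed in edgeR, beside 8.83% of all genes tested, and 0 had an unadjusted p under 0.05. The lowest adjusted p was 0.618, for Nr1d2 (0.45, SE 0.49), which was at 0.12 (SE 0.43) without Cre chow 6. The interaction was 0.14 (SE 0.48) for Per1, 0.12 (SE 0.16) for Clock and 0.83 (SE 1.23, adjusted p = 0.739, edgeR) for Dbp. With the libraries with Xist RNA alone Dbp passed (-3.04, adjusted p = 0.0341, edgeR), beside 8.62% of all genes in that fit, and its diet response there was 3.21 (log2) for Cre and 0.17 for liver-Flcn-/- mice. No interaction passed among the libraries without Xist RNA, where the term for Dbp was 2.54 (SE 1.42, adjusted p = 0.569, edgeR).

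A shift in the time of day could move the phases of the loop in opposite directions, and the signs of the fitted changes were therefore read by phase. The signs alone do not show such a shift, and its part was not tested. With MCD in Cre mice Arntl, Clock and Npas2 all had log2 fold changes below 0 (3 of 3) and 5 of the 6 genes of the opposite phase had values above 0, with Nr1d1 as the exception. With MCD in liver-Flcn-/- mice these counts were 3 of 3 and 6 of 6. For genotype, 0 of the 6 genes of the opposite phase were above 0 on either diet, and the activators were above 0 in 2 of 3 cases on chow and 3 of 3 on MCD. Without Cre MCD 3 the opposite-phase genes above 0 with MCD in Cre mice were 3 of 6, and 1 of 6 for genotype on MCD, and without Cre chow 6 the activators above 0 for genotype on chow were 1 of 3. In liver-Flcn-/- mice the MCD value of Per2 was -0.27 without liver-Flcn-/- MCD 1, and that of Nr1d1 -0.14 without liver-Flcn-/- chow 4. With Xist RNA alone Per2 (-0.18) and Per3 (-0.092) were below 0 in this comparison, and the other opposite-phase genes above. For genotype on chow with Xist RNA alone, Per2 (0.076), Per3 (0.86), Nr1d1 (0.49) and Dbp (1.81) were above 0. Per1 and Nr1d2 stayed below 0 there. Most of these single values did not pass the test.

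A phase index, the mean log2 CPM of Arntl, Clock and Npas2 minus that of Nr1d1, Nr1d2, Dbp, Per1, Per2 and Per3, each centred over all livers, placed every liver on 1 axis. It was 0.29 ± 2.31 (SD, n = 6) in Cre mice on chow and -1.41 ± 1.03 (n = 5) on MCD, and 1.29 ± 0.91 (n = 5) and -0.19 ± 1.15 (n = 6) in liver-Flcn-/- mice. The 5 Cre mice on MCD lay between -3.05 and -0.41, all below 0, and Cre mice on chow ran from -3.93 in Cre chow 6 to 2.47. The genotype difference in the mean index on chow was 1.00, and 0.16 without Cre chow 6. That on MCD was 1.22, and 0.81 without Cre MCD 3. The diet difference in Cre mice was -1.70, -2.54 without Cre chow 6 and -1.29 without Cre MCD 3. The index is given as a description and was not tested, because the genes were chosen with results known.

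Within the libraries with Xist RNA (3 per group) the mean index was 1.79 in Cre mice on chow and -0.75 on MCD, and 1.27 and 0.27 in liver-Flcn-/- mice. Within those without it, it was -1.21 and -2.39 in Cre mice and 1.33 and -0.66 in liver-Flcn-/- mice. The mean of the MCD livers was thus lower in each genotype and each class, whereas the genotype difference on chow was -0.52 with Xist RNA and 2.54 without it, and 1.18 without it when Cre chow 6 was left out as well.

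**Figure D4:**
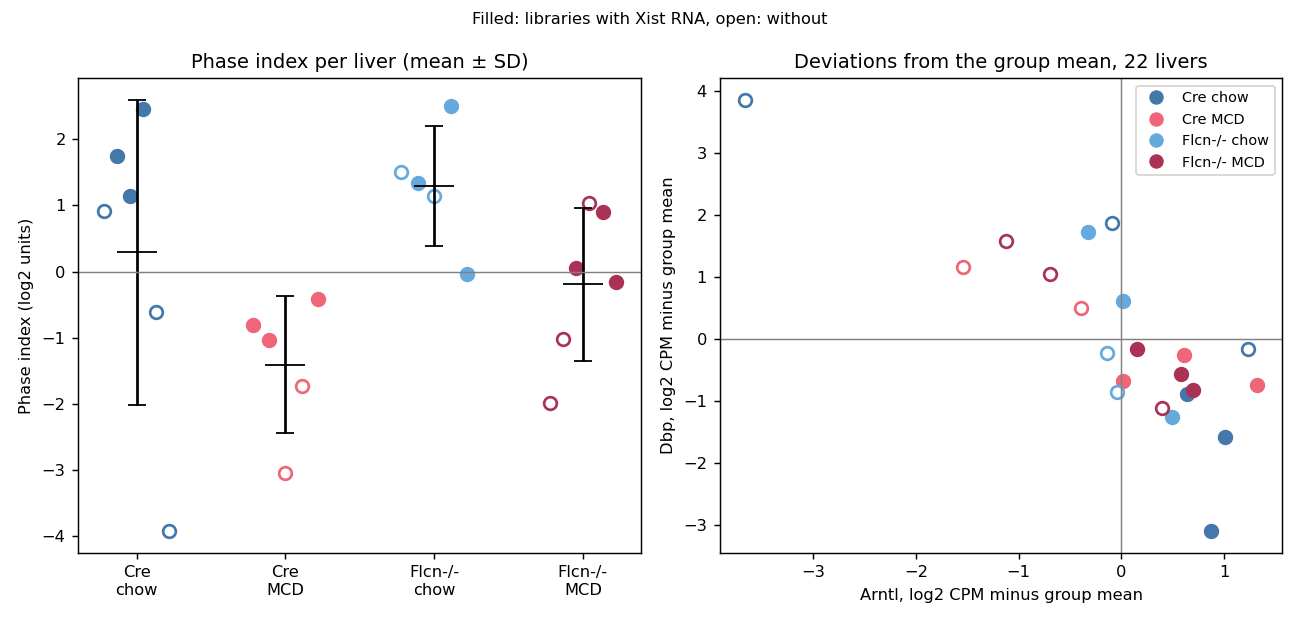
The left panel shows the phase index (log2 units) of each liver with group mean ± SD, and the right panel the deviations of Arntl and Dbp log2 CPM from their group means in the 22 livers (open points are libraries without Xist RNA). Cre chow 6 has the lowest index (-3.93) and lies at the upper left of the right panel, and the deviations of the 2 genes have a Pearson r of -0.82.

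The spread between livers of 1 group was a marked property of most of these genes. The SD of log2 CPM within groups was 1.59 for Dbp, 1.27 for Npas2, 1.18 for Arntl and 1.11 for Per3, where the median over all genes tested was 0.253. Dbp was at percentile 99.1 of the 14062 genes, Npas2 at 98.5, Arntl at 98.2 and Per3 at 98.0. Per2 (95.8), Nr1d1 (95.3), Per1 (91.8), Nr1d2 (90.6) and Cry1 (87.1) followed, and Clock was at percentile 28.9 with an SD of 0.187. In Cre mice on chow the highest liver exceeded the lowest 133.6-fold for Dbp and 1.36-fold for Clock, and 33.6-fold and 1.16-fold without Cre chow 6. Without Cre chow 6 and Cre MCD 3 the SD within groups was 1.28 for Dbp, 0.823 for Npas2, 0.603 for Arntl and 0.888 for Per3. That of Arntl was then below the 0.620 of Nr1d2 with all livers, so its high percentile rested in part on these 2 livers.

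This spread was shared between genes. After removal of group means, Arntl correlated over the 22 livers with Npas2 (Pearson r = 0.87, Spearman rho = 0.78), Cry1 (0.70, 0.70) and Clock (0.63, 0.59), and inversely with Dbp (-0.82, -0.74), Per3 (-0.74, -0.65), Nr1d2 (-0.71, -0.69) and Per2 (-0.56, -0.54). All 7 passed a permutation test with 100000 resamples within groups after adjustment over the 9 relations, with Pearson adjusted p from 0.00045 for Dbp to 0.0222 for Per2 and Spearman adjusted p from 0.00072 to 0.0167. Nr1d1 (r = -0.43, adjusted p = 0.127 and rho = -0.52, adjusted p = 0.0143, permutation test) passed by rank only, and Per1 (r = -0.30, rho = -0.22) passed by neither measure. The permutations did not keep livers within Xist class. With means of group and Xist class removed together, r was 0.90 for Npas2, 0.72 for Cry1, 0.70 for Clock and -0.79 for Dbp. It was -0.66 for Per3, -0.61 for Nr1d2, -0.33 for Per2, -0.23 for Nr1d1 and -0.29 for Per1, and these values were not tested.

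Without Cre chow 6 and Cre MCD 3, which were farthest from the median of Arntl, r was 0.74 for Npas2, 0.74 for Cry1, 0.54 for Clock, -0.69 for Dbp, -0.56 for Nr1d2, -0.53 for Per3 and -0.48 for Per2. Within the 12 libraries with Xist RNA r was 0.69 for Npas2, 0.84 for Cry1, 0.45 for Clock, -0.52 for Dbp, -0.36 for Nr1d2 and -0.27 for Per2, but -0.01 for Per3, so the relation of Per3 was not seen there. Within the 10 libraries without it r was 0.95 for Npas2, 0.79 for Cry1, 0.76 for Clock, -0.92 for Dbp, -0.87 for Per3, -0.85 for Nr1d2 and -0.34 for Per2.

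**Figure D5:**
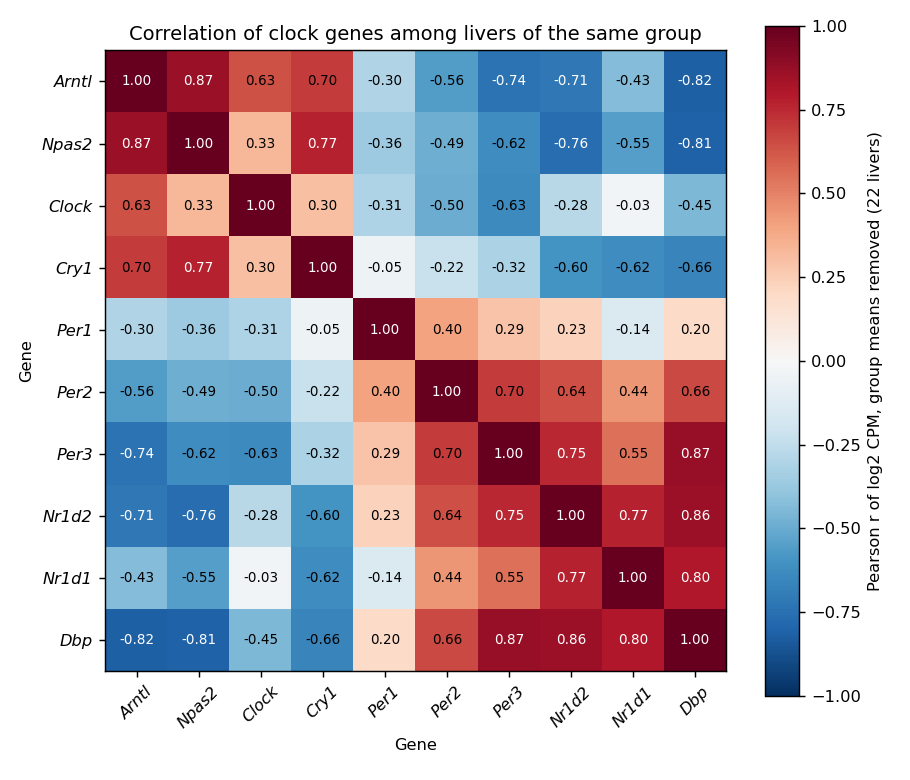
Pearson r between the clock genes over 22 livers, from log2 CPM with group means removed. Arntl, Npas2, Clock and Cry1 form 1 positive block and Per2, Per3, Nr1d1, Nr1d2 and Dbp another, with r of -0.82 between Arntl and Dbp and r of 0.20 between Per1 and Dbp.

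A mean of at least 1 CPM was reached by 12842 genes, the clock genes included. Of these, the genes outside the clock genes that followed Dbp most closely over the same 22 livers were Tef (r = 0.94), a PAR bZIP relative of Dbp, and Bhlhe41 (0.91), which encodes the repressor DEC2. Next came Ciart (0.90), a repressor of ARNTL activity, Jade1 (0.88) and 1810013L24Rik (0.85). Closest to Arntl were Lgalsl (0.94), Ypel2 (0.93), St5 (0.92), Slc45a3 (0.91) and Lnx2 (0.90). With means of group and Xist class removed together, r was 0.73 to 0.91 for the first 5 and 0.88 to 0.94 for the second.

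Of 17 other clock genes (further repressors, PAR bZIP factors, RORs and the kinases and ubiquitin ligases that set PER and CRY stability), MCD raised 5 and lowered 4 in Cre mice and raised 4 and lowered 1 in liver-Flcn-/- mice, and their median log2 fold changes were 0.09 and 0.03. The shares of all genes tested that passed, against which this and the following lists are to be read, were 57.5% and 45% for MCD and 8.62% and 16.6% for genotype on chow and MCD. Nfil3, the repressor that competes with DBP for D-boxes, went from 52.0 ± 23.4 (SD, n = 6) to 12.1 ± 4.28 CPM (n = 5) in Cre mice and from 41.2 ± 11.9 (n = 5) to 13.7 ± 5.59 CPM (n = 6) without Flcn. Its log2 fold changes were -2.11 (adjusted p = 4.09e-05, edgeR) and -1.59 (adjusted p = 0.00071). Csnk1e, a kinase that marks PER proteins for degradation, rose by 1.22 and 0.81 on the log2 scale, and Gsk3b, another clock kinase, by 0.42 and 0.37. Of the genes of this list that followed Dbp, Ciart rose by 2.48 and 2.93 (adjusted p = 0.00655 and 0.0103, edgeR), whereas Bhlhe41 (1.32 and 1.40) and Tef (0.16 and 0.24) did not pass. Ciart in Cre mice was at 4.33 without Cre chow 6 and 3.87 with limma-voom, and its calls were lost among the 10 libraries without Xist RNA (1.80 and 4.06, adjusted p = 0.136 and 0.055, edgeR), as were those of Gsk3b in both genotypes, Rora in Cre and Nfil3 in liver-Flcn-/- mice. Btrc, a ubiquitin ligase subunit acting on PER, and Rora, the activator at ROR elements, fell in Cre mice (-0.46 and -0.43) and did not pass in liver-Flcn-/- mice (-0.20 and -0.22), and for neither did the interaction pass (adjusted p = 0.219 and 0.389). For genotype, 1 of the 17 rose on chow and 4 rose on MCD, and none fell in edgeR.

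Of 20 genes known as clock outputs in liver, MCD raised 4 and lowered 4 in Cre mice and raised 6 and lowered 2 in liver-Flcn-/- mice, with medians of 0.06 and 0.26. Those that passed were fewer, as a share, than the 57.5% and 45% of all genes. Elovl3, a fatty acid elongase, had the largest changes of those named, -6.43 and -5.89 (adjusted p = 0.000345 and 0.000483, edgeR), and its chow values ran from 5.11 to 604.8 CPM in Cre mice and from 0.485 to 415.6 CPM in liver-Flcn-/- mice. On MCD they ran from 2.05 to 3.84 and from 1.53 to 4.00 CPM, so a liver-Flcn-/- chow liver lay below every MCD liver of its genotype. With limma-voom neither change passed (-4.68 and -3.78, adjusted p = 0.0675 and 0.133), and with Xist RNA alone they were -2.43 and -2.87 (adjusted p = 0.0425 and 0.0226, edgeR). Tspan4 (1.18 and 1.00), Pparg, a lipid-sensing nuclear receptor (1.29 and 1.00), and Por, the electron donor of cytochromes P450 (0.94 and 1.22), rose in both genotypes. Mreg was at -0.47 in Cre mice (adjusted p = 0.0424, edgeR), a call lost with limma-voom (adjusted p = 0.0916), with the replicate block (0.0518) and on leaving out any of 6 Cre livers (0.0649 to 0.128), and was higher in liver-Flcn-/- than in Cre mice on MCD (0.92, adjusted p = 0.00268, edgeR). For genotype 0 of the 20 passed on chow (3 had an unadjusted p under 0.05), and 2 rose and 1 fell on MCD.

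Genes that follow feeding, glucocorticoids and temperature, signals that also reach the liver clock, are given beside the clock genes. Of 11 feeding and fasting genes 4 rose and 3 fell with MCD in each genotype. For genotype, 0 rose and 1 fell on chow, and 1 rose and 2 fell on MCD. Fgf21, a hormone of fasting and amino acid shortage, rose by 4.33 and 3.50 (log2, Cre and liver-Flcn-/-). It was lower in liver-Flcn-/- than in Cre mice on MCD (-1.59, adjusted p = 0.0129, edgeR). That call was lost without Cre MCD 2 (-1.02, adjusted p = 0.0773, edgeR) and among the libraries without Xist RNA (-1.31, adjusted p = 0.223). The lipogenic Fasn (-2.74 and -3.34) and Srebf1 (-1.54 and -1.77) and the glucose-6-phosphatase gene G6pc (-2.47 and -1.82) fell with MCD. The second value of G6pc missed the threshold with Xist RNA alone (-1.31, adjusted p = 0.069, edgeR), and the first of Srebf1 without it (-1.19, adjusted p = 0.0634). Ppargc1a, a transcriptional coactivator of the fasting response, rose by 0.55 and 1.05 (log2) with MCD, the first of which was at 0.31 without Cre MCD 3 (adjusted p = 0.155, edgeR) and 0.08 with Xist RNA alone (adjusted p = 0.791), and was higher in liver-Flcn-/- than in Cre mice on MCD (1.10, adjusted p = 0.000961, edgeR). Of 8 glucocorticoid targets 3 rose and 3 fell in Cre mice, against 2 and 4 in liver-Flcn-/- mice. For genotype, 0 passed on chow, and 0 rose and 2 fell on MCD. Fkbp5 rose (1.17 and 1.75), whereas Tsc22d3 (-1.49 and -1.39), Errfi1 (-1.58 and -0.78) and Dusp1 (-1.62 and -1.53) fell, the second value of Errfi1 missing the threshold without liver-Flcn-/- chow 3 (-0.59, adjusted p = 0.0625, edgeR). Lcn2, which neutrophils also express, rose in Cre mice (3.93), had 1.37 (adjusted p = 0.0772, edgeR) in liver-Flcn-/- mice and was lower in liver-Flcn-/- than in Cre mice on MCD (-2.64).

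Of 6 temperature-dependent genes 3 rose and 1 fell in Cre mice and 2 rose in liver-Flcn-/- mice. For genotype, 0 passed on chow, and 0 rose and 1 fell on MCD. The latter was Hsph1 (-1.26, adjusted p = 0.0267, edgeR), a call lost without Cre MCD 2 (-0.58, adjusted p = 0.203). The cold-inducible Rbm3 rose from 15.1 ± 1.91 (SD, n = 6) to 44.0 ± 6.13 CPM (n = 5) in Cre mice (log2 fold change 1.54, adjusted p = 4.53e-10, edgeR) and from 18.8 ± 2.35 (n = 5) to 45.2 ± 5.60 CPM (n = 6) in liver-Flcn-/- mice (1.27). Cirbp, also cold-inducible, rose by 0.53 and 0.93, the first being 0.31 without Cre MCD 5 (adjusted p = 0.055, edgeR). The chaperone gene Hsph1 had 1.28 in Cre mice (adjusted p = 0.007, edgeR), a value that rested on Cre MCD 2 (0.60 without it, adjusted p = 0.0976) and was 2.36 with and -0.25 without Xist RNA. Dnajb1 had -0.32 there, a call that was lost without Cre chow 1, Cre MCD 1 or Cre MCD 5 (adjusted p = 0.0815, 0.0597 and 0.105, edgeR), and Hspa1b passed in neither genotype (-0.68 and -0.81). The part of feeding, glucocorticoids or body temperature in the clock gene values was not tested.

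Markers of other cell types moved with the diet as well. The summed level of 4 neutrophil markers (most abundant S100a9) went from a median of 2.25 CPM on chow to 25.6 on MCD in Cre mice and from 3.09 to 16.2 in liver-Flcn-/- mice, with 2 of the 2 markers tested higher in each. The sum of 5 stellate cell markers (most abundant Reln) went from 74.3 to 163.1 CPM in Cre mice, where 3 of 5 rose, and from 106.4 to 115.1 in liver-Flcn-/- mice, where 0 of 5 passed in edgeR. Hepatocyte markers fell in 4 of 5 cases in Cre mice and 3 of 5 in liver-Flcn-/- mice, endothelial markers in 3 and 4 of 5. Kupffer cell and macrophage markers gave 1 higher and 1 lower of 5 in Cre mice and 2 lower in liver-Flcn-/- mice, lymphocyte markers 0 and 2 lower of 5, and bile duct markers 2 higher and 0 of 4. These sums are scaled to library size without TMM factors. Of the neutrophil markers, Ly6g and Mpo were each at or under 3 counts in 21 of 22 libraries, so the neutrophil sum is that of S100a8 and S100a9. No marker of the other types was at 0 in any library. The part of cell makeup in the clock gene values was not tested.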

How the data were processed

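Total RNA of each liver was made into an mRNA library and sequenced as single-end reads. Per the labels and the study's methods, the authors used bcl2fastq, Trimmomatic, STAR on GRCm38 and HTSeq, and deposited raw counts of reads per gene for 22 libraries, without normalization. Adapters carried molecular identifiers, but a collapsing step, the annotation release and the tool versions were not given in the sources used here, so the counts were treated as reads. Nothing states that same-numbered mice are related, and p-values measure the spread between these mice.

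The 10 clock genes and the lists beside them were chosen with earlier results of these data known. Counts of the 14062 genes with a mean of at least 10 were fitted in R 4.3.3 with edgeR 4.0.16 (TMM, 4 groups in 1 fit, two-sided quasi-likelihood test, Benjamini-Hochberg, adjusted p of 0.05), and SE is the log2 fold change over the root of F. Single genes were compared by exact permutation on log2 CPM (prior count 2), and correlations by 100000 permutations within groups. Marker sums are CPM without TMM factors. Positions come from GENCODE M21. All 10 genes are named, and of each other list the 5 genes with the smallest p and, for likeness, the 5 with the highest r to Dbp and to Arntl. Genes of a list that likeness names are also given. A gene of the feeding list is not reported here, and the counts of that list leave it out. Libraries held 13751347 to 21144388 counts, and low counts carry more error. All 22 columns of the table were used.

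Alternatives were DESeq2 1.42.0, limma-voom (limma 3.58.1), RLE factors, other filters, only the groups compared, a replicate block, omission of 5 chow libraries in which few reads mapped uniquely and of each library in turn, and, chosen after seeing the data, sex read from Xist as a covariate and fits within each Xist class. Simulated data were used to test the fit. Immunoblots, histology and other diets were not analysed here.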

Additional observations from a re-analysis of the deposited data

Results flagged for a closer look

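Among 44 groups of values checked (the 10 genes and the phase index in 4 groups), 3 held a liver far from the others of its group by Dixon's criterion on log2 CPM, and chance alone gives about 1 in 20. Arntl was at 1.13 CPM in Cre chow 6, the lowest of its group, where its gap to the next liver was 0.73 of the whole range. Per2, a repressor of the loop, was at 42.6 CPM in Cre MCD 3, with a gap of 0.83 of the range. Cry1 was at 27.1 CPM in liver-Flcn-/- chow 4, with a gap of 0.80 of the range, and that liver also had the highest Arntl (34.1 CPM) and Npas2 (14.7 CPM) and the lowest Nr1d1 (15.7 CPM), Nr1d2 (14.3 CPM) and Dbp (3.53 CPM) of its group. The cause of these values was not tested.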

How the results depend on the processing

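Clock with MCD in Cre mice passed under all 33 alternatives (adjusted p up to 0.0273, edgeR and the other tools), and Per1 under 32 of 33 in each genotype, the exceptions being the 10 libraries without Xist RNA (adjusted p = 0.0608 and 0.176). Clock in liver-Flcn-/- mice passed under 30 of 33 (0.00304 to 0.0871). Npas2 in Cre mice passed under 23 of 32 and could not be fitted with at least 10 counts in every library. With MCD in Cre mice 5 clock genes passed with the replicate block (Per3 and Dbp added), 7 without the 5 chow libraries in which few reads mapped uniquely, 5 with sex read from Xist as a covariate, 7 with only the libraries with Xist RNA and 1 with only those without it, where 55.0%, 51.6%, 58.1%, 52.4% and 33.3% of all genes tested passed. Leaving out each library in turn gave 2 to 7. In liver-Flcn-/- mice 1 passed with and 0 without Xist RNA (40.7% and 20.7% of all genes), and 3 in a fit of only the groups compared (Arntl added, 46.8%). Between genotypes on chow 1 passed with DESeq2 (Per1, beside 10.8% of all genes) and 0 to 1 on leaving out each library, and on MCD Per1 passed (1 gene) with limma-voom, in a fit of only those groups, with the replicate block and without the 5 chow libraries (beside 17.0%, 14.5%, 13.3% and 19.3%), and leaving out each library gave 0 to 1. For the interaction 1 passed with only the libraries with Xist RNA (Dbp, beside 8.62%). Of 20 same-numbered pairs, 6 correlated above 0.1 after removal of group means. Between genotypes on chow, r was 0.35 to 0.47 in pairs of 1 Xist class and -0.55 and -0.39 in mixed pairs. These values therefore cannot show whether the replicate numbers pair the mice. The cause of these changes was not tested, and some of these fits, but not all, held fewer libraries. The 10 and 12 libraries of the Xist classes limit what could pass, and all genes called between genotypes on chow fell from 1212 to 339 and 624 in them, to 494 without the 5 chow libraries and to 670 without liver-Flcn-/- chow 4. Within the 10 libraries without Xist RNA all genes called fell to 4684 and 2916 for MCD, to 687 between genotypes on MCD and to 62 for the interaction, which had 552 with the replicate block, 779 without the 5 chow libraries, and 819 and 820 without Cre MCD 1 and liver-Flcn-/- chow 4.

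Single log2 fold changes that turned sign had not passed with all libraries. For MCD in Cre mice Nr1d1 turned to 0.21 with limma-voom, 0.26 with the replicate block, 0.99 without the 5 chow libraries, 0.095 with the Xist covariate and 0.91 with Xist RNA, and ran from -0.28 to 0.20 on leaving out each library, where Per2 ran from -0.22 to 0.80 and Nr1d2 from -0.0059 to 0.53. For MCD in liver-Flcn-/- mice Per2 turned to -0.028 with limma-voom, -0.0006 with the replicate block, -0.032 with the covariate and -0.18 with Xist RNA, where Per3 was -0.092, and on leaving out each library Per2 ran from -0.27 to 0.35 and Nr1d1 from -0.14 to 0.32. Between genotypes on chow, Npas2 was 0.19 with limma-voom and 0.14 without Xist RNA, and Cry1 -0.061 with the replicate block, -0.0014 with the covariate and -0.028 without Xist RNA. Without the 5 chow libraries and with Xist RNA alone, which use the same chow libraries, Arntl was -0.10 and -0.10, Per2 0.075 and 0.076, Per3 0.86 and 0.86, Nr1d1 0.49 and 0.49 and Dbp 1.81 and 1.81, and the difference in phase index was -0.52 in both and 2.54 without Xist RNA, against 1.00 with all libraries. On leaving out each library Arntl ran from -0.12 to 0.31, Npas2 from -0.72 to 0.026 and Cry1 from -0.34 to 0.14, and on MCD Nr1d2 from -0.42 to 0.0073. For the interaction Dbp was -0.82 with limma-voom, -1.10 with the replicate block, -2.92 without the 5 chow libraries, -0.52 with the covariate and -3.04 with Xist RNA. Nr1d1 was -0.041 with the replicate block, -0.92 without the 5 chow libraries, -0.053 with the covariate and -0.90 with Xist RNA, and Nr1d2 -0.19 without the 5 chow libraries and -0.056 with Xist RNA. Per1 was -0.11 with the replicate block and -0.24 without Xist RNA, and Per3 1.03 without Xist RNA. On leaving out each library the interaction ran from -0.074 to 0.44 for Per1, from -0.89 to 0.37 for Per2, from -1.11 to 0.38 for Per3, from -0.088 to 0.40 for Nr1d1 and from -0.77 to 1.52 for Dbp.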
